A study of Rattus norvegicus with 24 samples.

Results

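Transcript levels of 2 genes of the heart muscle cell, Atp2a2 (ENSRNOG00000001285) and Gja1 (ENSRNOG00000000805), were followed across 24 RNA sequencing libraries of rat left ventricle. They were taken by their Ensembl identifiers and are 2 of the 32883 gene rows in the deposited count table. The libraries came from Sprague Dawley rats, an outbred laboratory strain, and fell into 4 groups of 6. Microneedle patch hearts had an infarct and a patch that anchors itself by microneedles, Sutured patch hearts an infarct and a patch held by sutures, MI hearts an infarct (myocardial infarction) and no patch, and Sham hearts the sham operation. The tissue was the infarct region at day 7. The labels do not say which part of the Sham ventricle was taken, what the patches were made of, how old the rats were or whether each library came from a separate rat, so all p-values measure the spread between libraries.

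Atp2a2, also called Serca2, encodes the pump that returns calcium to the sarcoplasmic reticulum after each contraction of a heart muscle cell. Its activity sets how fast the muscle relaxes and how much calcium is stored for the next beat, and a low pump level is a textbook feature of the failing heart. Gja1, also called Cx43, encodes the main connexin of the working ventricle. Connexins form the gap junctions at the intercalated discs through which current passes from one muscle cell to the next, but Gja1 is also made by fibroblasts, endothelial cells and other cells of the heart, whereas the main form of the Atp2a2 pump in the heart belongs to muscle. A further splice form of the pump occurs in nearly all cells, and counts per gene do not separate the forms. In bulk tissue, fewer cells of a type and less RNA per cell cannot be told apart.

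The libraries held 13590783 to 14552623 counts with the microneedle patch, 12574300 to 14437712 with the sutured patch, 12864218 to 13974505 in MI and 5443782 to 11757562 in Sham, so each Sham library was shallower than any other. Both genes were abundant in all of them. Atp2a2 was read at least 4593 times and Gja1 at least 1354 times in each library, which puts the Poisson counting error of a single value between 0.302% and 2.72%. That error is far smaller than the spread between libraries of a group (coefficients of variation of 19.8% to 81.2%). It covers counting alone, because without molecular identifiers several reads can stem from 1 molecule. Levels are given as CPM, counts scaled to a common library size, with library sizes corrected by TMM, a trimmed mean of the ratios between libraries.

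The median level of the calcium pump was lower in each infarct group than in Sham, and lowest with the microneedle patch. Atp2a2 ranged from 366 to 579 CPM with a median of 396 CPM in the 6 Microneedle patch libraries. In the Sutured patch libraries it ranged from 404 to 2152 CPM with a median of 909 CPM. MI libraries lay between 1089 and 3815 CPM with a median of 1706 CPM. Sham libraries spread from 1164 to 11099 CPM with a median of 3739 CPM. All 6 Microneedle patch libraries were below all MI and all Sham libraries, while each other pair of groups overlapped. How many other genes separate these groups as fully was not counted, so the separation by itself does not set the gene apart.

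**Figure D1:**
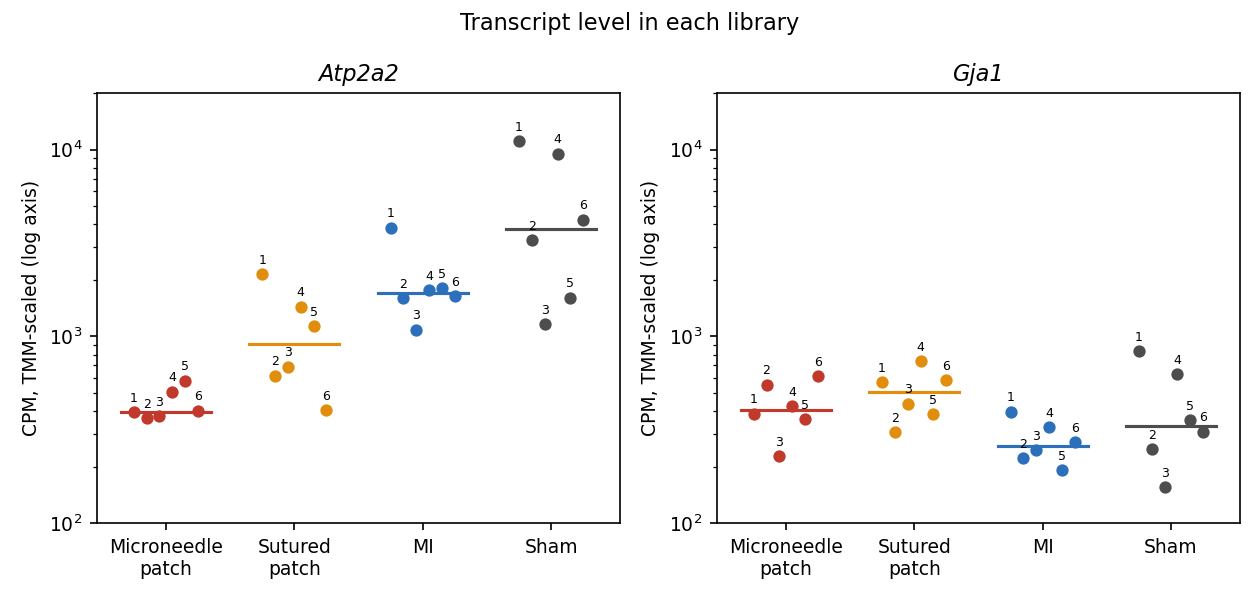
Level of Atp2a2 (left) and Gja1 (right) in each library, in TMM-scaled CPM on a log axis; each point is 1 library with its replicate number, and the horizontal line is the median of the group. Atp2a2 medians step up in order from 396 CPM with the microneedle patch through 909 CPM and 1706 CPM to 3739 CPM in Sham, whereas the 4 Gja1 medians lie between 259 and 502 CPM.

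Among the transcripts of the Sham ventricle, Atp2a2 stood between the 4th and the 69th most counted gene of each library. It held the ranks 9 to 79 in MI, 22 to 313 with the sutured patch and 183 to 424 with the microneedle patch. Its share of all counts averaged 0.0431% ± 0.0106 with the microneedle patch, 0.112% ± 0.069 with the sutured patch, 0.197% ± 0.101 in MI and 0.493% ± 0.390 in Sham (SD, n = 6 each). Its level was the most even with the microneedle patch and the least even in Sham, with a coefficient of variation of 19.8% with the microneedle patch, 60.6% with the sutured patch, 48.5% in MI and 81.2% in Sham.

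How far an infarct without a patch differs from Sham tissue was asked first. Atp2a2 averaged 1955 ± 948 CPM in MI and 5146 ± 4179 CPM in Sham (SD, n = 6 each). Its log2 fold change was -1.40 (SE 0.46, 95% interval -2.34 to -0.45), and it was called lower by edgeR's quasi-likelihood test with Benjamini-Hochberg adjustment over 14540 genes (adjusted p = 0.0155). In this comparison 44.7% of all tested genes were called, 23.2% of all as lower, so a call by itself does not set the gene apart; 7.11% of the tested genes had a lower log2 fold change. The groups overlapped, and 1 of 6 MI libraries lay below every Sham library. The call was lost without Sham replicate 1 (log2 fold change -1.02, adjusted p = 0.0656, against 0.00081 to 0.0452 over the alternative settings). It was also not reached by a two-sided exact permutation test on unscaled log2 CPM (p = 0.123).

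The spread in Sham was wide, and its shallowest libraries were its lowest. Sham replicates 1 and 4 had 11099 and 9522 CPM of Atp2a2, replicates 2 and 6 had 3269 and 4209 CPM, and replicates 3 and 5 had 1164 and 1612 CPM. Replicates 2, 3 and 5 lay inside the range of MI. Replicates 3 and 5 also had the lowest totals of the 24 libraries, with 8303319 and 5443782 counts. When each library was thinned to the depth of the shallowest, the log2 fold change between MI and Sham was -1.39 (edgeR adjusted p = 0.016). Thinning keeps the expected share of a gene in each library, so it cannot show whether the shallow libraries differ in other ways. Without Sham replicates 3 and 5, left out after the data were seen, it was -1.84 (adjusted p = 0.000809). Sham replicates 4 and 5 stood apart in the number of genes detected, 14079 and 13635, against 16223 to 16449 in the other Sham libraries. Without these 2, of which replicate 4 was high and replicate 5 low in Atp2a2, the log2 fold change was -1.31 (adjusted p = 0.0261).

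Against Sham, both patch groups had less pump transcript. With the microneedle patch Atp2a2 averaged 437 ± 86.4 CPM, against 5146 ± 4179 CPM in Sham (SD, n = 6 each), a log2 fold change of -3.56 (SE 0.50, 95% interval -4.58 to -2.54; edgeR adjusted p = 1.72e-06). This is an 11.8-fold lower level, with 6 of 6 libraries below every Sham library; 51.5% of all genes were called in the same comparison, 25.7% of all as lower, and 2.17% had a lower log2 fold change. With the sutured patch it averaged 1073 ± 650 CPM and was 4.80-fold lower than in Sham (log2 fold change -2.26, SE 0.47, 95% interval -3.23 to -1.29; edgeR adjusted p = 0.00032). There 4 of 6 libraries lay below every Sham library, and 48.0% of all genes were called, 23.8% of all as lower. The comparisons with Sham share its 6 libraries and are not independent of each other.

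Set against MI, the question was whether a patch shifts the transcript in the infarct region. Atp2a2 averaged 437 ± 86.4 CPM with the microneedle patch and 1955 ± 948 CPM in MI, which is 4.48-fold lower (log2 fold change -2.16, SE 0.47, 95% interval -3.13 to -1.20; edgeR adjusted p = 0.00399). The highest Microneedle patch library, replicate 5 with 579 CPM, remained below the lowest MI library, replicate 3 with 1089 CPM. Of all genes 14.5% were called in this comparison, 7.41% of all as lower, and Atp2a2 was the 387th by p-value. Only 2.23% of the tested genes had a lower log2 fold change. The fall stayed called without any single library of the 24, at log2 fold changes of -2.27 to -1.86 and adjusted p-values of 0.00209 to 0.0163. The exact permutation test on unscaled log2 CPM gave a two-sided p of 0.00216, the smallest that 6 against 6 libraries can give.

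The sutured patch lay between. Atp2a2 averaged 1073 ± 650 CPM with it and 1955 ± 948 CPM in MI, and the difference did not pass the test (log2 fold change -0.87, SE 0.45, 95% interval -1.80 to 0.07; edgeR adjusted p = 0.289, with 4.55% of all genes called). Of its 6 libraries 3 were below every MI library, while replicates 1, 4 and 5 had 2152, 1446 and 1131 CPM, all inside the MI range. The interval holds both no difference and one more than 3-fold in size.

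The microneedle patch was then set against the sutured patch. The labels do not say what the patches were made of, so the way of fixing cannot be told apart from other differences between them. The pump averaged 437 ± 86.4 CPM with the microneedle patch and 1073 ± 650 CPM with the sutured patch (log2 fold change -1.30, SE 0.46, 95% interval -2.24 to -0.36). This was not called (edgeR adjusted p = 0.197), in a comparison where 0.316% of all genes were, and 4 of 6 Microneedle patch libraries lay below every Sutured patch library. Limma-voom with quality weights, which called 5.42% of all genes here, also called the pump (log2 fold change -1.31, adjusted p = 0.0308, against 0.0308 to 0.269 over the alternative settings), and the exact permutation test gave an unadjusted two-sided p of 0.0108. In the order of levels, microneedle patch, sutured patch, MI, Sham, the neighbours MI and Sham passed the edgeR test after adjustment, and the other neighbours did not. Before adjustment the edgeR p was 0.00542 for MI against Sham and 0.00892 for the microneedle against the sutured patch. The adjustment differed, with 44.7% of all genes called in the first and 0.316% in the second. The exact permutation test gave an unadjusted two-sided p of 0.123 for the first and 0.0108 for the second.

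For the connexin, 0 of the 6 comparisons passed the edgeR test after adjustment, and 1 was below an unadjusted p of 0.05. DESeq2 called 0. Limma-voom called 2, both of the sutured patch, where it also called 56.6% of all genes against Sham and 21.5% against MI. For the pump edgeR called 4 of 6, DESeq2 4 and limma-voom 5. Gja1 ranged from 229 to 610.4 CPM with the microneedle patch, with a median of 404 CPM. With the sutured patch it ranged from 306 to 738 CPM, with a median of 502 CPM. MI libraries lay between 192 and 395 CPM around a median of 259 CPM, and Sham libraries between 156 and 834 CPM around a median of 333 CPM. Every pair of groups overlapped. The highest Gja1 value of all was that of Sham replicate 1 and the lowest that of Sham replicate 3, so that the Sham libraries spanned those of each other group.

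For MI against Sham, Gja1 averaged 276 ± 74.3 CPM and 422 ± 257 CPM (SD, n = 6 each). The log2 fold change was -0.61 (SE 0.32, 95% interval -1.27 to 0.04; edgeR adjusted p = 0.118). Leaving out Sham replicate 3 brought it past the threshold (log2 fold change -0.79, adjusted p = 0.0357, with 42.5% of all genes called), as did leaving out Sham replicates 3 and 5 together (-0.87, adjusted p = 0.0253, with 46.3% of all genes called, against 0.0253 to 0.595 over the alternative settings).

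Patch hearts had the higher connexin means among the infarct groups. With the sutured patch Gja1 averaged 503 ± 157 CPM, against 276 ± 74.3 CPM in MI (log2 fold change 0.87, SE 0.32, 95% interval 0.21 to 1.52). It stood above every MI library in 4 of 6 libraries, and 94.98% of the tested genes had a lower log2 fold change. The value did not pass after adjustment in edgeR over all genes (adjusted p = 0.126). It passed with limma-voom (log2 fold change 0.95, adjusted p = 0.00533), in edgeR on these groups alone (0.87, adjusted p = 0.0217) and without Sham replicates 3 and 5 (0.89, adjusted p = 0.0471), among alternatives that ran from 0.00533 to 0.162. Those settings also called more genes, 21.5% with limma-voom, 15.3% with the groups alone and 10.7% without the Sham replicates, against 4.55% in the edgeR fit of all libraries. The exact permutation test gave an unadjusted two-sided p of 0.00866.

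With the microneedle patch Gja1 averaged 427 ± 137 CPM, against 276 ± 74.3 CPM in MI, a log2 fold change of 0.63 that did not pass (SE 0.32, 95% interval -0.02 to 1.28; edgeR adjusted p = 0.175). In 3 of 6 libraries it was above every MI library. The patches themselves were close for this gene, at 427 ± 137 CPM with the microneedle patch and 503 ± 157 CPM with the sutured patch (log2 fold change -0.24, SE 0.32, 95% interval -0.89 to 0.41; edgeR adjusted p = 0.799). That interval reaches from 0.541 to 1.33 times the sutured patch level.

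Against Sham, neither patch group was called for the connexin. The log2 fold change was 0.02 with the microneedle patch (SE 0.32, 95% interval -0.64 to 0.67; edgeR adjusted p = 0.973), at 427 ± 137 CPM against 422 ± 257 CPM in Sham. It was 0.25 with the sutured patch (SE 0.32, 95% interval -0.40 to 0.90; edgeR adjusted p = 0.536), at 503 ± 157 CPM against 422 ± 257 CPM in Sham. Limma-voom with quality weights gave 0.78 for the sutured patch (adjusted p = 0.0275, against 0.0275 to 0.973 over the alternative settings). By mean level the order was MI, Sham, microneedle patch, sutured patch, and no neighbours in it differed beyond their spread in the edgeR test.

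**Figure D2:**
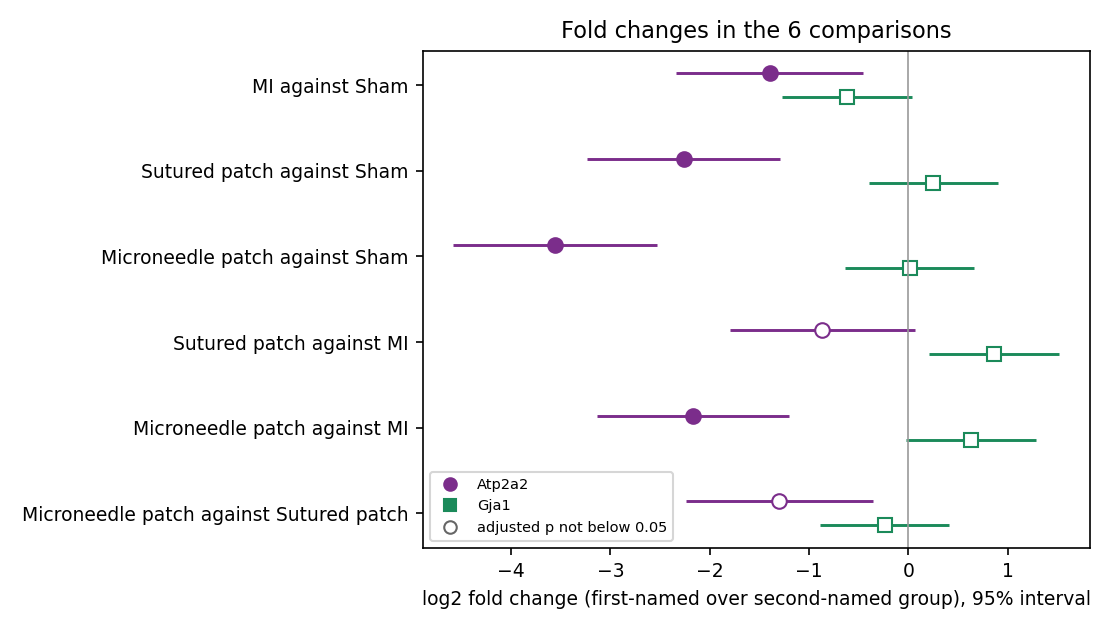
Log2 fold change of the first-named over the second-named group for Atp2a2 (circles) and Gja1 (squares), with 95% intervals from the edgeR fit of all 24 libraries; filled symbols have an adjusted p below 0.05. Atp2a2 lies left of 0 in all 6 comparisons and is filled in 4 of them, down to -3.56 for the microneedle patch against Sham, while Gja1 lies between -0.61 and 0.87 and is open throughout.

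The pump and the connexin can be set against each other inside a library, where the ratio of their counts needs no scaling of library sizes. Gene length is not taken out of this ratio, so its height says nothing of transcript numbers, but it cancels between groups. There were 0.656 to 1.64 Atp2a2 counts for each Gja1 count with the microneedle patch, with a median of 1.10. With the sutured patch there were 0.693 to 3.79, with a median of 1.99. The ratio ran from 4.42 to 9.65 with a median of 6.60 in MI, and from 4.51 to 15.2 with a median of 13.2 in Sham. Both patch groups therefore lay wholly below both groups without a patch. MI and Sham overlapped, as did the patches. For the sutured patch against MI, neither gene was called by itself in edgeR (adjusted p = 0.289 for Atp2a2 and 0.126 for Gja1). The ratios of other pairs of genes were not computed.

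On the log2 scale the ratio averaged 0.08 ± 0.59 with the microneedle patch, 0.93 ± 0.85 with the sutured patch, 2.76 ± 0.45 in MI and 3.37 ± 0.69 in Sham (SD, n = 6 each). The difference was -2.68 for the microneedle patch minus MI and -1.82 for the sutured patch minus MI. Neither changed by as much as the spread between libraries when any single library was left out; the values ran from -2.80 to -2.54 and from -2.02 to -1.53. For MI minus Sham it was -0.61, and 1 of 6 MI libraries lay below every Sham library. The ratio is a score over both genes and is given as a description, without a test.

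**Figure D3:**
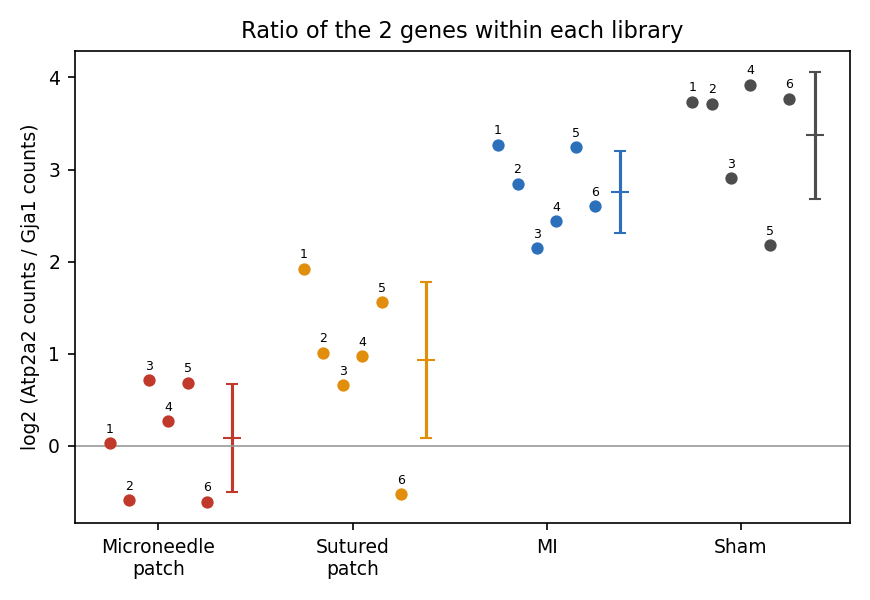
Log2 of the Atp2a2 count over the Gja1 count in each library, by group; points are libraries with their replicate numbers, and the bars beside them are the mean ± SD of 6. Microneedle patch libraries lie between -0.61 and 0.71 and Sutured patch libraries between -0.53 and 1.92, all below the lowest MI library at 2.14 and the lowest Sham library at 2.17.

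Single libraries could be low in the pump and high in the connexin. Sutured patch replicate 6 had the lowest Atp2a2 level of its group, 404 CPM, beside the second highest Gja1 level, 583 CPM. Sutured patch replicate 1 had the highest Atp2a2 level, 2152 CPM, beside 568 CPM of Gja1. In Microneedle patch hearts the pump was narrow, within a 1.58-fold range, and the connexin varied 2.67-fold, from 229 CPM in replicate 3 to 610.4 CPM in replicate 6.

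Of the 4 groups, Sham had the highest correlation between the genes. Over the 6 Sham libraries, log2 CPM of Atp2a2 and Gja1 had a Pearson r of 0.88 (exact permutation p = 0.0361) and a Spearman rho of 0.83 (exact permutation p = 0.0583). Adjusted over the 8 coefficients computed in the 4 groups, both exact p-values became 0.233. Without Sham replicates 1 and 3, the farthest from the median of Atp2a2, r was 0.64 over the remaining 4 libraries. The same Sham libraries, replicates 1 and 4, were highest for both genes.

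In the infarct groups the coefficients were lower, though no difference between groups was tested. Pearson r was -0.08 with the microneedle patch (exact permutation p = 0.803, adjusted 0.917), 0.35 with the sutured patch (exact permutation p = 0.506, adjusted 0.809) and 0.65 in MI (exact permutation p = 0.172, adjusted 0.459). Spearman rho was -0.09 with the microneedle patch (exact permutation p = 0.919, adjusted 0.919), 0.26 with the sutured patch (exact permutation p = 0.658, adjusted 0.878) and 0.37 in MI (exact permutation p = 0.497, adjusted 0.809). Without the pair of libraries farthest from the median, r was 0.28 with the microneedle patch, 0.78 with the sutured patch and -0.06 in MI. In MI the pair was replicate 1, the highest for both genes, and replicate 3, and neither was left out singly. The levels of a library share its depth and its scaling. No coefficient of this pair over all 24 libraries is given, as it would mix differences between groups with those within them.

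**Figure D4:**
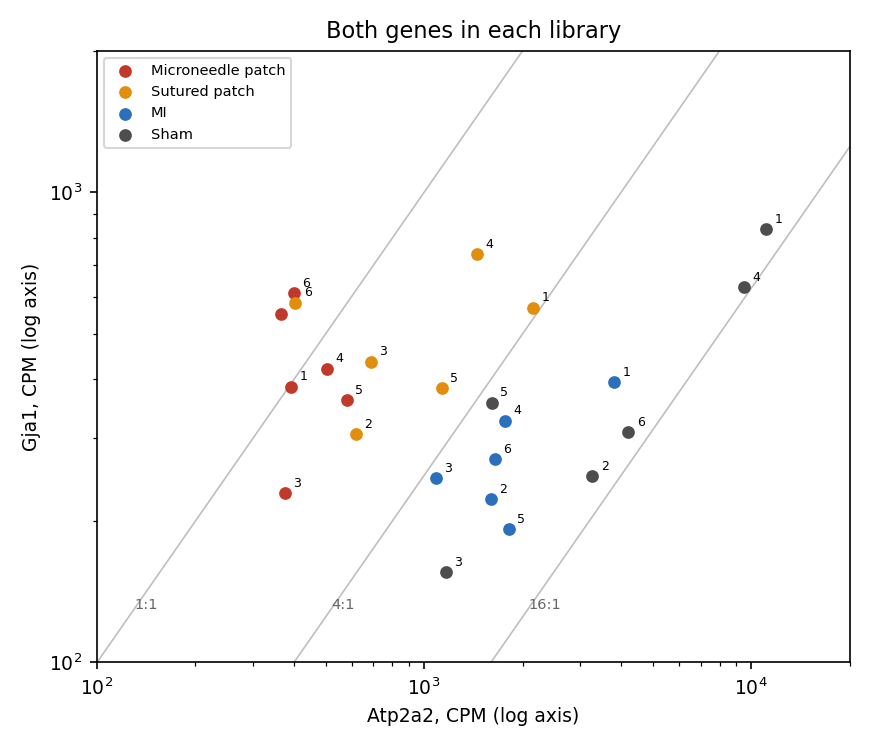
Gja1 against Atp2a2 in each of the 24 libraries, in TMM-scaled CPM on log axes, coloured by group and marked with the replicate number; grey lines join points of equal ratio (1:1, 4:1 and 16:1). Microneedle patch libraries gather at the left near the 1:1 line, with 366 to 579 CPM of Atp2a2, while Sham libraries run from 1164 CPM of Atp2a2 and 156 CPM of Gja1 in replicate 3 to 11099 and 834 CPM in replicate 1.

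The pump had more transcripts of like pattern than the connexin. Among 9913 other genes with a mean of at least 10 CPM, 270 had a Pearson r above 0.9 with Atp2a2 over the 24 libraries, and 0 had one with Gja1. This is a description of libraries that share their group, depth and scaling, with no test. The closest to Atp2a2 were ENSRNOG00000010633 (r = 0.98) and ENSRNOG00000009790 (r = 0.98), with 0.95 and 0.94 after the group means were removed. ENSRNOG00000010633 averaged 30.02 ± 4.96 CPM with the microneedle patch, 89.4 ± 61.1 with the sutured patch, 156 ± 99.0 in MI and 509 ± 409 in Sham (SD, n = 6 each). ENSRNOG00000009790 averaged 6.30 ± 2.13 CPM with the microneedle patch, 18.5 ± 13.7 with the sutured patch, 43.3 ± 24.9 in MI and 119 ± 94.7 in Sham. Both thus stood in the same order of group means as the pump.

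The closest to Gja1 were ENSRNOG00000019152 (r = 0.79) and ENSRNOG00000001766 (r = 0.79). Their group means did not stand in the same order as those of the connexin, though MI was the lowest in each. ENSRNOG00000019152 averaged 195 ± 28.0 CPM with the microneedle patch, 187 ± 12.3 with the sutured patch, 170 ± 6.78 in MI and 175 ± 23.9 in Sham. ENSRNOG00000001766 averaged 68.8 ± 12.9 CPM with the microneedle patch, 94.7 ± 6.71 with the sutured patch, 53.4 ± 11.1 in MI and 94.8 ± 89.6 in Sham. The count table gives no gene symbols, and no names are given to these identifiers. Whether the transcripts of other calcium-handling or junction genes, or the markers of other heart cell types, moved with either gene was not tested for the same reason, nor was the labelled tissue checked against its markers.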

How the data were processed

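RNA of 24 left ventricle libraries was sequenced, and the authors deposited raw counts for each Ensembl gene ID, made with HISAT2, featureCounts and the genome build rn6, per the submitters' processing notes. Their versions, the annotation release and any use of strand were not given in the sources used here, so reads of overlapping or antisense genes could not be told apart, and positions in rn6 are not reported here. Columns were assigned by the code in each sample title (0 unassigned). Of 32883 IDs, 0 matched the RefSeq gene table of the assembly GRCr8, which was used only for the synonyms of Atp2a2 and Gja1; the symbols of these IDs came with the choice of genes and could not be checked against the files. Lists of calcium-handling, junction and cell type marker genes, set by symbol, could therefore not be run (0 lists).

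Low genes were removed in edgeR 4.0.16 under R 4.3.3 (filterByExpr, minimum count 10), which left 14540 genes, both members included. Counts were scaled by TMM and fitted with 4 group means over all 24 libraries (20 residual degrees of freedom, robust quasi-likelihood F test). P-values were adjusted by Benjamini-Hochberg over all genes of a comparison, with calls at an adjusted p below 0.05. The SE is the absolute log2 fold change over the square root of F. Similarity between genes used log2 CPM (prior count 2), and the 2 IDs most like each member were named. No pair of libraries in a group agreed within sampling noise (lowest chi-square per degree of freedom 14.6). The alternatives included DESeq2 1.42.0 and limma-voom (limma 3.58.1). Members, gene lists and tests were chosen with earlier results of these data known.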

Additional observations from a re-analysis of the deposited data

Results flagged for a closer look

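Among the 12 sets of 6 values examined (Atp2a2 and Gja1 in CPM and the log2 ratio of their counts, in each of the 4 groups), 1 value stood far from the others of its group. Atp2a2 in MI replicate 1 had 3815 CPM, and the next highest MI library had 1817 CPM. The gap was 0.733 of the whole range of the group, above Dixon's critical value of 0.625 for 6 values. Chance flags about 1 in 20 such sets if the values are normally distributed. For Atp2a2 and Gja1 the values were CPM, and log2 CPM was not examined. MI replicate 1 was also the highest MI library for Gja1, with 395 CPM, while its ratio of 9.65 was close to the 9.46 of MI replicate 5. Without it, the log2 fold change of Atp2a2 was -1.86 for the microneedle patch against MI (adjusted p = 0.0163) and -0.56 for the sutured patch against MI (adjusted p = 0.59).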

How the results depend on the processing

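The calls of Atp2a2 for the microneedle patch against MI, the microneedle patch against Sham and the sutured patch against Sham held under all 11 alternatives and without any single library. For MI against Sham the Atp2a2 call was lost in the exact permutation test (-1.01). Permutation p-values are unadjusted, over 12 comparisons. Results past the threshold only under an alternative were, for Atp2a2, the microneedle against the sutured patch with limma-voom (-1.31) and in the permutation test (-1.18). For Gja1 they were the sutured patch against MI with limma-voom (0.95), the groups alone (0.87), without Sham replicates 3 and 5 (0.89) and in the permutation test (0.90), the sutured patch against Sham with limma-voom (0.78), the microneedle patch against MI in the permutation test (0.57, p = 0.0498) and MI against Sham without Sham replicates 3 and 5 (-0.87). Gja1 with the microneedle patch against Sham changed sign when libraries were thinned (-0.033) and without Sham replicates 3 and 5 (-0.23), and ranged from -0.16 to 0.33 without single libraries, with 6 of 24 below 0. The cause of these shifts was not tested.

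Without single libraries, the log2 fold change of Atp2a2 ranged from -1.70 to -1.02 for MI against Sham, losing the call only without Sham replicate 1, and that of Gja1 from -0.79 to -0.30, called only without Sham replicate 3. With the replicate number as a block, a pairing the labels do not state, Atp2a2 was at -2.0 for the microneedle patch against MI and -1.20 for MI against Sham. No call of either gene changed, but Gja1 for the sutured patch against MI came near the threshold (0.86, edgeR adjusted p = 0.0511). The deviations of same-numbered libraries correlated with r from -0.13 to 0.59, with a median of 0.169 (24 of 36 pairs above 0.1). Of the 24 libraries, 9 correlated best with one of their own number. The numbers were not taken as pairs because the labels state no pairing, and whether they mark one was not tested.

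Counts of called genes stayed within 1.5 times in the comparisons with Sham and moved further in the others. The 661 genes of the sutured patch against MI became 1130 with DESeq2, 3128 with limma-voom, 2141 with the groups alone, 1715 without Sham replicates 4 and 5 and 1589 without replicates 3 and 5 (308 to 1408 without single libraries). The 2112 genes of the microneedle patch against MI became 5089 with limma-voom, 4593 with the groups alone, 3804 without Sham replicates 4 and 5 and 3815 without 3 and 5 (1036 to 3482 without single libraries). The 46 genes of the microneedle against the sutured patch became 28 without the filter, 159 with the block, 427 with DESeq2, 788 with limma-voom, 499 without Sham replicates 4 and 5 and 457 without 3 and 5 (0 to 302 without single libraries). Leaving out Sham replicates 3 and 5 was chosen after seeing the data.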
